A study of Mus musculus with 18 samples.

Results

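Receptor tyrosine kinases are membrane proteins that bind a growth factor or a neighbour's surface protein outside the cell and phosphorylate tyrosines inside it. The genes described here are 49 named receptor tyrosine kinase genes, chosen by name, of the 26327 gene symbols counted in RNA sequencing of cells sorted from mouse trachea. Enough reads to be tested were counted for 32 of them, and 17 were too low. The study compared 7 libraries of brush cells with 7 of EpCAM+ cells and 4 of CD45+ cells from the same organ. All mice were untreated and carried the transgene Tg(RP23-268L19-EGFP)2Mik on the B6.Cg background, a BAC in which Chat sequences drive eGFP, so that every group shares it, the comparison groups included. The brush cell gate was EpCAM+ eGFP+ without CD45, and the EpCAM+ gate was EpCAM+ without CD45, which as worded does not leave out eGFP+ cells. The third gate took CD45+ hematopoietic cells. The age of the mice is not given in the sources used here, and the labels do not say which libraries came from separate animals. The p-values therefore measure only the spread between these libraries, which may be technical.

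Once a ligand pairs 2 receptor molecules, the phosphorylated tails recruit adaptors such as Grb2 and the exchange factor Sos1, which turn on Ras and the MAP kinases, and in parallel the PI3-kinase route. The pathway switches on its own brakes, among them the Sprouty and Dusp families, and its own transcription factors, such as Etv1. In the airway lining, EGF and FGF receptors are known for their roles in growth, repair and the upkeep of basal cells, which are the stem cells of the tracheal epithelium. Kit is the receptor for stem cell factor and is best known from mast cells and blood progenitors, Tek (TIE2) from endothelium, Csf1r from macrophages, and the Eph receptors from contact between neighbouring cells.

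The genes for Kit, Tek and the Eph receptors Ephb6 and Ephb4 were high in brush cells, while those for the FGF receptors Fgfr2 and Fgfr3, the EGF receptors Egfr and Erbb2, the HGF-family receptors Met and Mst1r, the ephrin receptor Epha2 and the Gas6 receptor Axl were high in EpCAM+ cells and low in brush cells. Of the 32 tested genes, 10 were higher in brush cells than in EpCAM+ cells, 12 were lower and 10 were not called, at an adjusted p below 0.05 in edgeR's quasi-likelihood test with Benjamini-Hochberg adjustment over all 13418 genes tested. That is 68.8% of the tested receptor genes, where 40.3% of all tested genes were called in either direction, 18.3% higher and 22.0% lower in brush cells. The receptor genes, and the gene lists used below, were chosen with earlier results of these data known. Their shares of called genes, here and below, therefore describe these genes and are no test against all genes. The median log2 fold change of the receptor genes was -0.04, beside -0.06 over all tested genes, so the median receptor gene did not lean to either side. In 6 genes all brush libraries were above all EpCAM+ libraries and in 10 all were below, where 9.54% and 10.7% of all tested genes were.

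Against CD45+ cells, 21 receptor genes were higher in brush cells, 5 were lower and 6 were not called, which is 81.2% called, beside 45.8% of all tested genes (23.4% higher and 22.4% lower). The median log2 fold change was 2.45 for the receptor genes and 0.05 for all tested genes. All brush libraries were above all CD45+ libraries in 17 genes and below in 5, where 16.8% and 13.8% of all tested genes were. Between EpCAM+ and CD45+ cells, 20 were higher in EpCAM+ cells, 4 were lower and 8 were not called, which is 75.0%, beside 40.5% of all tested genes (22.5% higher and 18.1% lower). The EpCAM+ libraries were above all CD45+ libraries in 18 genes and below in 4, where 15.9% and 11.4% of all tested genes were. The comparisons share libraries in pairs, so their results are not independent of each other. The set that passed the count filter is itself shaped by the groups. Through brush libraries alone 3 genes passed (Pdgfra, Ntrk2 and Tek), and through EpCAM+ libraries alone 2 (Mst1r and Fgfr3). Flt3 and Mertk passed through CD45+ libraries alone. Ret reached the filter's level in 3 CD45+ libraries, 1 brush library and 1 EpCAM+ library. It therefore passed only with libraries of more than 1 group. In bulk samples fewer cells of a type and less RNA per cell cannot be told apart.

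Across both brush comparisons, 8 genes were higher in brush cells than in either other group (Kit, Pdgfra, Ntrk2, Tek, Epha4, Epha7, Ephb4 and Ephb6), a pattern held by 11.3% of all tested genes. Pdgfra, Ntrk2 and Tek were tested only because of their brush libraries, so the filter shaped this count. Fgfr1, Axl and Mertk were lower in brush cells than in both, a pattern of 9.82% of tested genes, and Mertk was tested only because of its CD45+ libraries. Erbb2, Met, Fgfr2, Tyro3 and Ddr1 stood between the groups, lower than in EpCAM+ and higher than in CD45+ cells, where 2.88% of tested genes did. Csf1r was higher than in EpCAM+ and lower than in CD45+ cells, where 1.62% did.

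**Figure D1:**
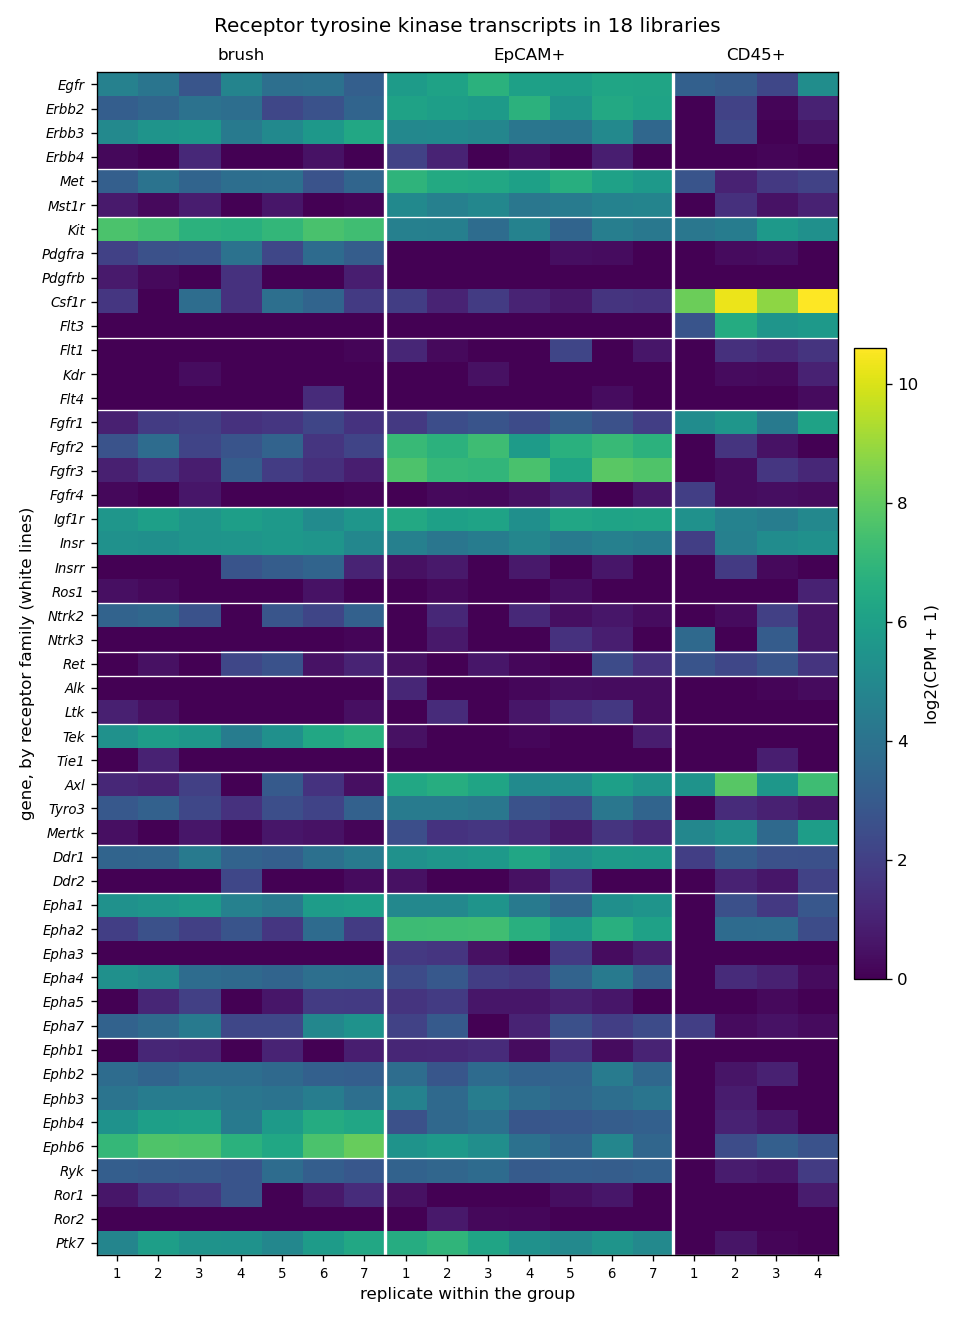
Level of each receptor gene (rows, grouped by receptor family) in each of the 18 libraries (columns, grouped by sort), as log2 of CPM plus 1. Levels are high in the brush columns for Kit, Ephb6, Ephb4 and Tek, and in the EpCAM+ columns for Fgfr2, Fgfr3 and Epha2. In the CD45+ columns levels are high for Csf1r and Axl.

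The sequence just upstream of a transcription start is shown for 5 of these genes. They were taken because 4 of them (Ephb6, Kit, Tek and Ephb4) carry the highest levels among the 8 brush-high genes and the fifth, Fgfr3, has the highest level in EpCAM+ cells. Each is the 250 bases before a transcription start in RefSeq's promoter table on build GRCm38.p6, plus strand, 5′ to 3′, with every GGGCGG, on either strand, in capitals; this is the core of the GC box bound by Sp1-type factors. The windows are chr6:41605261-41605510 for Ephb6, chr5:75574737-75574986 for Kit, chr4:94739039-94739288 for Tek, chr5:137349859-137350108 for Ephb4 and chr5:33721474-33721723 for Fgfr3. The RefSeq gene record of Ephb6 begins upstream of its window, at base 41603834 of chromosome 6, so that window lies within the record. That of Tek begins inside its window, at base 94739086 of chromosome 4, so the window lies within the record from that base on.
Ephb6: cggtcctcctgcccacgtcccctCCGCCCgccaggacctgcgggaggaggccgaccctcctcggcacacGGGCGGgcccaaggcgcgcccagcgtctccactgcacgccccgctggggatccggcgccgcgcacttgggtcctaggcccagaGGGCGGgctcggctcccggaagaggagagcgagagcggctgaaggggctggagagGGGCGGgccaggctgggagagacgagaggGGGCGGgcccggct
Kit: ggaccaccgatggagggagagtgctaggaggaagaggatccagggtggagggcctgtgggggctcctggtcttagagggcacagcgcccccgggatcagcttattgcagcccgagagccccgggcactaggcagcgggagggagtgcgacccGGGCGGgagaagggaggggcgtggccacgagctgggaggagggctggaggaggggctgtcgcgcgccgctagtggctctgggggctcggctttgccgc
Tek: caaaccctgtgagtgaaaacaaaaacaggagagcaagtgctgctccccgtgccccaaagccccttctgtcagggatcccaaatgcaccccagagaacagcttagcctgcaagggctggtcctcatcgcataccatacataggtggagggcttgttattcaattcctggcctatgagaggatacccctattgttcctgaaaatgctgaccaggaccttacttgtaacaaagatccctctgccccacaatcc
Ephb4: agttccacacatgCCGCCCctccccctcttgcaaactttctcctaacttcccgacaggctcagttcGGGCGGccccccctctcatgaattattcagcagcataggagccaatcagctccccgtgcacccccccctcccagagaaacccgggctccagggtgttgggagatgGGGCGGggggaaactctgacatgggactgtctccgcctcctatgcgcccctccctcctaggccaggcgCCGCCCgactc
Fgfr3: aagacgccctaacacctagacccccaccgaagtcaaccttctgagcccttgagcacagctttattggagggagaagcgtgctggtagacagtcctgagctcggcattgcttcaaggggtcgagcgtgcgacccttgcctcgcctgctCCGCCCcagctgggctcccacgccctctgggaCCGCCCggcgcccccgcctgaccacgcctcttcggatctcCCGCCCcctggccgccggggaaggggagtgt

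The Ephb6 window was the richest of the 5 in G and C, at 76.8%, with 27 CpG pairs and 5 GGGCGG matches. Kit had 70.8% GC, 17 CpG pairs and 1 match, Ephb4 had 64.0%, 12 pairs and 4 matches, and Fgfr3 had 66.8%, 19 pairs and 3 matches. Tek stood apart with 51.2% GC, 2 CpG pairs and no match, close to the median of 52.4% GC and below the median of 6 CpG pairs over the 32851 windows in the table. GGGCGG was found in 32.7% of those windows and in 33 of the 48 windows of the 41 receptor genes that matched the table by symbol. The octamer ATGCAAAT, the motif of POU factors such as the brush cell regulator Pou2f3, was searched on both strands and was in none of the 48 windows, where 1.6% of all windows held it. None of the 4 motifs searched contains another. The E-box CANNTG was in 25 of the 48, beside 66.2% of all windows, and TATAAA in 3, beside 12.4%. A match or its absence describes these letters in these windows and nothing about the factors. Erbb3, Pdgfrb, Csf1r, Fgfr1, Insr, Insrr, Ntrk3 and Ret had no entry.

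Kit and Pdgfra are neighbours on chromosome 5, at 75574987 to 75656722 and 75151322 to 75198206 in RefSeq's GRCm38.p6 annotation, 376780 bases apart with no protein-coding gene between them. Kit, the receptor for stem cell factor, lay between 102 and 195 CPM in the 7 brush libraries with a median of 161, between 9.56 and 25.3 in EpCAM+ libraries with a median of 22.2, and at 17.2, 21.2, 51.6 and 38.6 in the 4 CD45+ libraries, where CPM are counts scaled to the TMM library size. Every brush library was above every library of both other groups. The log2 fold change was 2.98 ± 0.30 (SE) against EpCAM+ cells (adjusted p = 3.46e-08) and 2.17 ± 0.36 against CD45+ cells (adjusted p = 2.77e-05).

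Kit is also a mast cell gene, and CD45+ cells held summed mast cell markers (8 genes) of 205 to 1184 CPM. In brush libraries the same sum was 0 to 5.99 CPM, and 5 of the 8 markers, Cpa3, Mcpt4, Tpsb2, Cma1 and Ms4a2, had no count in any brush library. In EpCAM+ libraries the sum was 4.04 to 41.2 CPM, with Cpa3, Mcpt4, Tpsb2, Ms4a2 and Tpsab1 at no count. Nearly all of that sum was Hdc, with 374 counts beside 5 for Cma1 and 1 for Mrgprb2. Between EpCAM+ and CD45+ cells the Kit difference was not called (-0.81 ± 0.33, adjusted p = 0.0541), and it was called without CD45+ replicate 1 (adjusted p = 0.0205), without CD45+ replicate 2 (0.0337), without the 3 libraries that stood apart from their groups (0.0156), with limma-voom (0.046) and with a minimum of 10 CPM in 4 libraries (0.043).

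Pdgfra, the receptor for PDGF-A, was far lower than Kit but was likewise highest in brush cells, at 3.08 to 15.1 CPM in brush libraries (200 counts in all). It had 2 counts over all EpCAM+ libraries and 4 over all CD45+ libraries. The brush to EpCAM+ ratio was 103, with a 95% counting interval of 28.1 to 855, and the log2 fold change against CD45+ cells was 4.91 ± 0.88 (adjusted p = 6.5e-05). Intervals of this kind cover counting error only. Kdr, the next receptor gene along, 276104 bases from Kit with no protein-coding gene between, had 1 count in brush cells.

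Tek, the receptor for angiopoietins, at chromosome 4, 94739086 to 94874976, was nearly confined to the brush libraries. It lay between 20.7 and 101 CPM in brush libraries with a median of 47.7, between 0 and 0.809 in EpCAM+ libraries with a median of 0, and at 0 in all 4 CD45+ libraries. The brush libraries did not overlap with either group. In counts these were 2003 over the brush libraries, 5 over the EpCAM+ libraries and 0 over the CD45+ libraries. The log2 fold change against EpCAM+ cells was 8.16 ± 0.60 (adjusted p = 1.45e-09), and it was 9.08 without EpCAM+ replicate 7, the highest of that group. Against CD45+ cells brush cells were at least 323-fold higher, taking 3 counts over the CD45+ libraries as the floor.

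Endothelial cells are the usual source of Tek. The 7 endothelial markers summed to 10.3 to 27.3 CPM in the brush sort, 0.401 to 6.74 in the EpCAM+ sort and 24.1 to 107 in the CD45+ sort. In brush cells Esam (11.4 ± 5.78 CPM, SD, n = 7) and Vwf (4.12 ± 4.50) made up most of that sum, Cdh5 and Cldn5 had no count, Emcn had 1 and Pecam1 had 3. Tie1, the partner of Tek in endothelium, had 5 counts in brush cells, all in 1 library, none in EpCAM+ and 8 in CD45+ cells. The part of endothelial RNA in the Tek level was not tested.

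The ligand of Kit was low in brush cells. Kitl, which encodes stem cell factor, lay between 0 and 2.63 CPM in brush libraries, between 40.1 and 146 in EpCAM+ libraries with a median of 100, and averaged 16.8 ± 9.84 CPM in CD45+ libraries (SD, n = 4). Receptor and ligand thus ran in opposite directions, with Kit higher in every brush library and Kitl lower in every brush library than in any EpCAM+ library. The Kitl log2 fold change was -6.60 ± 0.55 against EpCAM+ cells (adjusted p = 2.13e-09) and -4.0 ± 0.57 against CD45+ cells (adjusted p = 3.13e-06). Angpt1 and Angpt2, which encode the angiopoietins, had 8 and 38 counts in brush cells, 44 and 24 in EpCAM+ cells, and 9 and 29 in CD45+ cells.

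**Figure D2:**
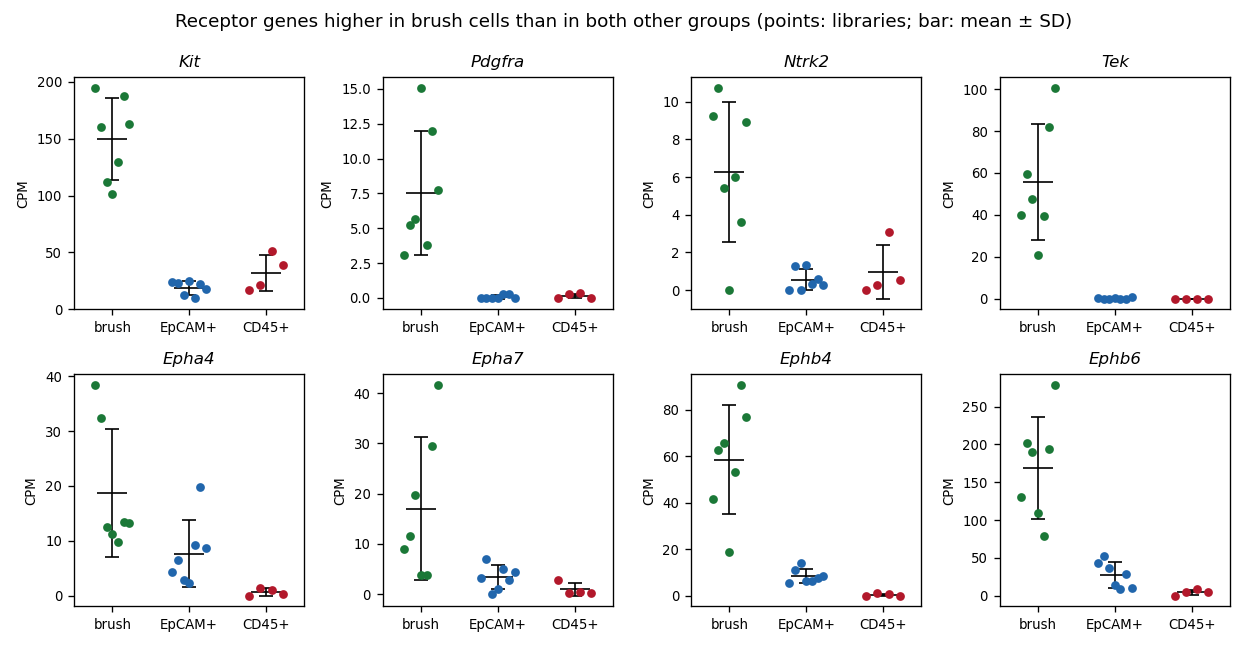
CPM (vertical axes, each panel with its own linear scale) of the 8 receptor genes called higher in brush cells than in both other groups, 1 point per library, with the mean and SD of each group. For Kit, Ephb6, Ephb4, Tek and Pdgfra the brush points lie above all others, and for Ntrk2 1 brush library is at 0.

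The Eph receptors bind ephrins on the surface of adjacent cells, and 11 of them are among the 49 genes. Ephb6, at chromosome 6, 41603834 to 41620509, encodes a member without kinase activity. It lay between 78.9 and 279 CPM in brush libraries with a median of 190, between 9.56 and 52.3 in EpCAM+ libraries with a median of 28.3, and at 0, 4.49, 8.32 and 5.33 in the CD45+ libraries. All brush libraries were above all EpCAM+ libraries, and these above all CD45+ libraries. The log2 fold changes were 2.61 ± 0.41 against EpCAM+ cells (adjusted p = 1.73e-05) and 4.93 ± 0.61 against CD45+ cells (adjusted p = 4.15e-07).

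Ephb4, the receptor for ephrin-B2, at chromosome 5, 137350109 to 137374522, had the same order. It lay between 18.9 and 90.9 CPM in brush libraries with a median of 62.6, between 5.21 and 14.1 in EpCAM+ libraries with a median of 7.78, and at 0, 0.997, 0.548 and 0 in CD45+ libraries. The groups did not overlap, and the lowest brush value, in replicate 4, was the one nearest to the EpCAM+ range. The log2 fold changes were 2.79 ± 0.35 (adjusted p = 8.4e-07) and 6.79 ± 0.63 (adjusted p = 5.62e-09). Its ligand Efnb2 was at 6.01 CPM in brush cells and 5.41 in EpCAM+ cells, a log2 difference of 0.03 ± 0.53 that was not called.

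Epha4 and Epha7 were lower and more variable. Epha4 ranged from 9.80 to 38.4 CPM in brush libraries, with replicates 1 and 2 above 30 CPM and the other 5 below 15 CPM, and from 2.29 to 19.9 in EpCAM+ libraries, so the groups overlapped. Its log2 fold change of 1.33 ± 0.46 against EpCAM+ cells (adjusted p = 0.0245) lost its call without brush replicate 1 (0.0938), brush replicate 2 (0.0724), EpCAM+ replicate 3 (0.0513) or EpCAM+ replicate 4 (0.0554). Against CD45+ cells it was 4.39 ± 0.74 (adjusted p = 3.24e-05). Epha7 ranged from 3.77 to 41.6 CPM in brush libraries and from 0 to 7.01 in EpCAM+ libraries, with log2 fold changes of 2.42 ± 0.61 (adjusted p = 0.00283) and, against CD45+ cells, 5.30 ± 1.05 (adjusted p = 2.0e-04). Epha7 was called higher in EpCAM+ than in CD45+ cells (2.89 ± 1.02, adjusted p = 0.0267), and that call was lost without EpCAM+ replicate 2 (0.0502), CD45+ replicate 2 (0.0845), CD45+ replicate 3 (0.0811) or CD45+ replicate 4 (0.0837), and with limma-voom (adjusted p = 0.336).

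Epha2, a receptor for ephrin-A1, went the other way, at 2.18 to 11.9 CPM in brush libraries with a median of 2.98, 53.7 to 163 in EpCAM+ libraries with a median of 101, and 0, 12.2, 12.5 and 4.57 in CD45+ libraries. The brush libraries overlapped with the CD45+ libraries and lay far below the EpCAM+ libraries. The log2 fold change was -4.56 ± 0.46 against EpCAM+ cells (adjusted p = 3.46e-08). Against CD45+ cells the difference of -0.85 ± 0.49 was not called (adjusted p = 0.169), and without brush replicate 6, the highest brush library, it was (-1.31, adjusted p = 0.0238).

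Epha1, Ephb2, Ephb3 and Epha5 were counted in both epithelial sorts without a call between them. Epha1 lay between 18.5 and 62.2 CPM in brush libraries with a median of 44.6, between 10.5 and 44.5 in EpCAM+ libraries with a median of 30.2, and at 0, 4.99, 2.41 and 6.35 in CD45+ libraries. Brush and EpCAM+ libraries overlapped (0.49 ± 0.34, adjusted p = 0.272), and both were above the CD45+ libraries, by 3.39 ± 0.51 for brush cells (adjusted p = 6.42e-06). Zyx and 2010310C07Rik overlap Epha1 on chromosome 6, so its reads cannot be fully told apart from theirs. Ephb3 averaged 17.8 ± 3.17 CPM in brush cells and 15.9 ± 5.55 in EpCAM+ cells, and had 3 counts over the CD45+ libraries, all in replicate 2 (brush to CD45+ ratio 101, 95% counting interval 34.5 to 493). Ephb2 averaged 10.9 ± 2.20, 11.5 ± 4.42 and 0.371 ± 0.472 CPM in brush, EpCAM+ and CD45+ cells. Epha5 was low everywhere, with 51 counts in brush, 29 in EpCAM+ and 2 in CD45+ cells (brush to CD45+ ratio 15.0, interval 3.95 to 127), and its call against CD45+ cells (adjusted p = 0.0167) was lost without CD45+ replicate 2 (0.0594) or CD45+ replicate 4 (0.0587), and with limma-voom (0.101). The 2 untested Eph genes were Epha3, with 30 counts in EpCAM+ cells and none elsewhere, and Ephb1, with 19 counts in brush, 30 in EpCAM+ and none in CD45+ cells.

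The ephrin ligands differed from one another. Efna1 averaged 8.85 ± 4.33 CPM in brush cells, 82.0 ± 28.5 in EpCAM+ cells and 0.207 ± 0.249 in CD45+ cells, which is lower in brush than in EpCAM+ cells (-3.34 ± 0.34, adjusted p = 3.91e-08) and higher than in CD45+ cells (4.71 ± 0.61). Efna1 and its receptor Epha2 were thus both lower in brush cells than in the other epithelium. Efna5 averaged 17.8 ± 3.21 CPM in brush and 42.7 ± 7.71 in EpCAM+ cells (-1.25 ± 0.40, adjusted p = 0.0163).

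Ntrk2, the receptor for the neurotrophin encoded by Bdnf, lay between 0 and 10.7 CPM in brush libraries with a median of 5.99, and averaged 0.540 ± 0.563 CPM in EpCAM+ and 0.956 ± 1.42 in CD45+ cells. Brush replicate 4, the shallowest brush library, had no count of it, and the other 6 lay above all EpCAM+ libraries. The log2 fold change was 3.43 ± 0.71 against EpCAM+ cells (adjusted p = 3.96e-04) and 2.33 ± 0.84 against CD45+ cells (adjusted p = 0.0268), and the second was lost without CD45+ replicate 2 (0.0927) or CD45+ replicate 4 (0.0886) and rose to 4.16 without CD45+ replicate 3. Bdnf itself was at 7.72 CPM in brush cells, 1.83 in EpCAM+ cells and 0 in CD45+ cells, higher in brush than in EpCAM+ cells by 2.13 ± 0.71 (adjusted p = 0.0216). Ntf3, the ligand of the related receptor Ntrk3, was low in brush cells at 0.608 ± 0.975 CPM and averaged 40.8 ± 12.4 in EpCAM+ cells (-6.65 ± 0.65, adjusted p = 2.15e-08). Ntrk3 was not tested, with 1 count in brush, 12 in EpCAM+ and 75 in CD45+ cells.

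The insulin and IGF1 receptor genes averaged over 20 CPM in all 3 groups. Insr lay between 28.8 and 49 CPM in brush libraries with a median of 43.9, between 16.8 and 27.8 in EpCAM+ libraries with a median of 20.8, and at 2.87, 23.4, 34.9 and 39.1 in CD45+ libraries. Brush libraries were just above all EpCAM+ libraries (0.93 ± 0.29, adjusted p = 0.0117) and overlapped with CD45+ libraries (0.60 ± 0.34, adjusted p = 0.159). Igf1r lay between 33.5 and 62.8 CPM in brush libraries with a median of 46.9, between 38.4 and 82.2 in EpCAM+ libraries with a median of 71.0, and at 40.2, 24.7, 21.8 and 29.5 in CD45+ libraries, overlapping throughout. Its difference from EpCAM+ cells was not called (-0.45 ± 0.23, adjusted p = 0.12), but was without EpCAM+ replicate 4, the lowest of that group (-0.58, adjusted p = 0.0406). Its difference from CD45+ cells was called (0.82 ± 0.28, adjusted p = 0.0216), and this was lost without CD45+ replicate 2 (0.0693) or CD45+ replicate 3 (0.0784). The third gene of this family, Insrr, had 71 counts in brush, 11 in EpCAM+ and 12 in CD45+ cells and was at 0 in 3 brush libraries. Igf1, the ligand, averaged 0.952 ± 1.44 CPM in brush, 0.817 ± 1.42 in EpCAM+ and 60.6 ± 44.3 in CD45+ cells (brush against CD45+ -5.62 ± 0.94, adjusted p = 2.78e-05).

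The FGF receptors bind fibroblast growth factors, and Fgfr2 and Fgfr3 were low in brush cells. Fgfr3, at chromosome 5, 33721724 to 33737068, lay between 0.813 and 7.54 CPM in brush libraries with a median of 1.71, between 73.1 and 233 in EpCAM+ libraries with a median of 188, and at 0, 0.249, 2.19 and 1.27 in CD45+ libraries. The brush and CD45+ libraries overlapped at a low level and neither reached the EpCAM+ range. The log2 fold change was -6.65 ± 0.49 against EpCAM+ cells (adjusted p = 3.13e-10), and against CD45+ cells it was 0.32 ± 0.60 (adjusted p = 0.693), turning to -0.04 without CD45+ replicate 2.

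Fgfr2, at chromosome 7, 130162451 to 130266808, lay between 2.13 and 12.6 CPM in brush libraries with a median of 5.62, between 56.0 and 160 in EpCAM+ libraries with a median of 113, and at 0, 1.99, 0.438 and 0 in CD45+ libraries. The 3 groups did not overlap and stood in the order EpCAM+, brush, CD45+. The log2 fold changes were -4.30 ± 0.44 against EpCAM+ cells (adjusted p = 4.5e-08) and 2.99 ± 0.67 against CD45+ cells (adjusted p = 7.0e-04), the latter 4.30 without CD45+ replicate 2.

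Fgfr1 was instead a gene of the CD45+ libraries, at 34.5, 45.9, 19.7 and 68.8 CPM there, 0.906 to 3.63 in brush libraries with a median of 2.18 and 2.41 to 7.71 in EpCAM+ libraries with a median of 4.67. Every CD45+ library was above every library of the other 2 groups (brush against CD45+ -4.18 ± 0.41, adjusted p = 1.5e-08). The smaller difference between brush and EpCAM+ cells (-1.02 ± 0.37, adjusted p = 0.0325) was lost without any one of brush replicates 1 (0.0694) and 7 (0.0607) and EpCAM+ replicates 3 (0.0564) and 5 (0.0663), without the 3 libraries that stood apart (0.0748) and with limma-voom (0.0678). Fgfr4 had 4, 10 and 6 counts in brush, EpCAM+ and CD45+ cells.

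Of the FGF ligands, Fgf9 was a brush gene, at 8.94 to 33.9 CPM in brush libraries and 0 to 1.27 in EpCAM+ libraries, with 2 counts over the CD45+ libraries. No brush library overlapped with the others, and the log2 fold change against EpCAM+ cells was 4.89 ± 0.65 (adjusted p = 1.7e-06). Brush cells therefore held the transcript of this FGF where the FGF receptor transcripts Fgfr2 and Fgfr3 were low, the reverse of the order seen for Kit and Kitl. Counts per gene do not separate splice forms of the receptors, so whether the forms present bind this FGF was not tested. Fgf1 was counted in both epithelial sorts, at 33.5 ± 11.1 CPM in brush and 48.3 ± 21.5 in EpCAM+ cells (-0.51 ± 0.31, adjusted p = 0.199), and was at 0.794 ± 0.662 in CD45+ cells.

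**Figure D3:**
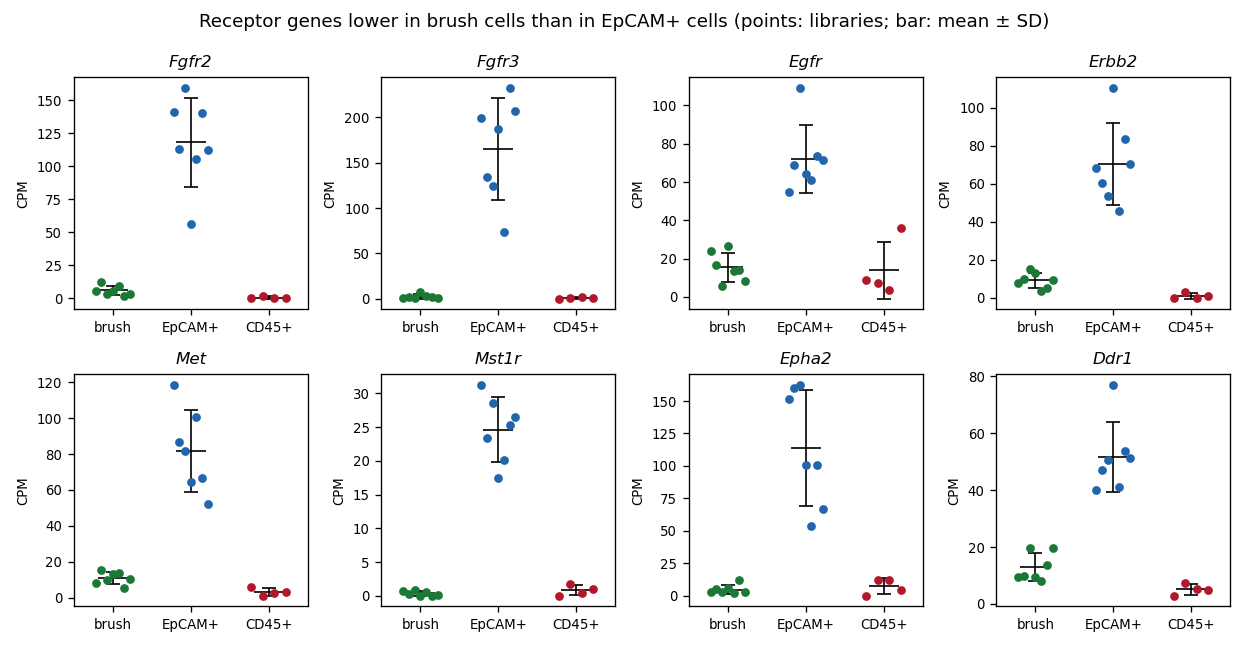
CPM (vertical axes, each panel with its own linear scale) of 8 receptor genes called lower in brush cells than in EpCAM+ cells, 1 point per library, with the mean and SD of each group. In all 8 panels every EpCAM+ point lies above every brush point; a lower SD bar can run below 0.

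The ErbB family split in 2. Egfr, the receptor for EGF-type ligands, lay between 5.96 and 26.4 CPM in brush libraries with a median of 14.3, between 54.9 and 109 in EpCAM+ libraries with a median of 68.6, and at 8.62, 7.23, 3.72 and 35.8 in CD45+ libraries. Brush libraries lay below all EpCAM+ libraries and overlapped with CD45+ libraries. The log2 fold change was -2.26 ± 0.41 against EpCAM+ cells (adjusted p = 9.88e-05). Against CD45+ cells the value was 0.06 ± 0.49 (adjusted p = 0.935), and it depended on CD45+ replicate 4: without it the difference was 1.36 (adjusted p = 0.0237). Without CD45+ replicate 3 it was -0.27. EpCAM+ against CD45+ cells gave 2.32 ± 0.52, and 3.62 without CD45+ replicate 4. The gene Egfros overlaps Egfr.

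Erbb2, the co-receptor of the family, at chromosome 11, 98412484 to 98437716, lay between 3.81 and 15.2 CPM in brush libraries with a median of 9.64, between 45.7 and 110 in EpCAM+ libraries with a median of 68.2, and at 0, 3.24, 0.11 and 1.02 in CD45+ libraries. The 3 groups did not overlap. The log2 fold changes were -2.95 ± 0.40 against EpCAM+ cells (adjusted p = 2.75e-06) and 2.85 ± 0.61 against CD45+ cells (adjusted p = 4.32e-04), the second rising to 4.34 without CD45+ replicate 2. Mien1 overlaps Erbb2, and how shared reads were assigned is not given in the sources used here.

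Erbb3, a neuregulin receptor, did not follow Egfr and Erbb2. It lay between 18.9 and 81.1 CPM in brush libraries with a median of 44.2, between 10.8 and 31.9 in EpCAM+ libraries with a median of 27.9, and at 0, 3.99, 0 and 0.508 in CD45+ libraries. Brush and EpCAM+ libraries overlapped, and the difference of 0.91 ± 0.44 was not called (adjusted p = 0.107), but was called without CD45+ replicate 2 (adjusted p = 0.0375), in a fit of these 2 groups alone (0.0236) with limma-voom (0.0464) and with the RSEM expected counts (0.0111). Against CD45+ cells brush cells were higher by 5.09 ± 0.76 (adjusted p = 5.9e-06), or 7.83 without CD45+ replicate 2. Erbb4 had 8, 18 and 1 counts in brush, EpCAM+ and CD45+ cells.

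Several ligands of the ErbB receptors were far lower in brush than in EpCAM+ cells. Hbegf averaged 39.1 ± 27.6 CPM in brush and 510 ± 362 in EpCAM+ cells (-3.75 ± 0.50, adjusted p = 1.72e-06), Areg 0.234 ± 0.180 and 11.5 ± 4.55 (-5.14 ± 0.50, adjusted p = 2.31e-08), and Nrg1 1.17 ± 0.82 and 39.0 ± 14.1 (-4.91 ± 0.42, adjusted p = 3.07e-09). Tgfa, Nrg4 and Btc were not called, with Tgfa at 13.4 ± 5.37 CPM in brush and 12.8 ± 8.11 in EpCAM+ cells (0.07 ± 0.41, adjusted p = 0.92), with 1 count over the CD45+ libraries. In CD45+ cells Areg averaged 23.5 ± 14.9 CPM, above brush cells (-6.10 ± 0.54 for brush against CD45+, adjusted p = 2.9e-09).

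Both receptors of the HGF family were EpCAM+ genes. Met, the HGF receptor, lay between 5.55 and 15.6 CPM in brush libraries with a median of 10.1, between 52.3 and 119 in EpCAM+ libraries with a median of 81.5, and at 5.75, 0.997, 2.41 and 3.30 in CD45+ libraries. Brush libraries lay below the EpCAM+ libraries and just met the highest CD45+ library, and the log2 fold changes were -2.94 ± 0.30 (adjusted p = 4.5e-08) and 2.10 ± 0.42 (adjusted p = 2.34e-04). Mst1r, the receptor for macrophage-stimulating protein, lay between 0 and 0.813 CPM in brush libraries with a median of 0.203, between 17.4 and 31.3 in EpCAM+ libraries with a median of 25.4, and at 0, 1.74, 0.438 and 1.02 in CD45+ libraries. It was at 0 in 2 brush libraries and was called lower than in EpCAM+ cells by -6.02 ± 0.50 (adjusted p = 1.76e-09). Against CD45+ cells it was at -1.36 ± 0.64 (adjusted p = 0.0901), and was called without CD45+ replicate 3 (0.0445). The ligand Mst1 averaged 3.20 CPM in brush and 21.9 in EpCAM+ cells (-2.87), and Hgf had 2, 24 and 29 counts in brush, EpCAM+ and CD45+ cells.

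Ddr1, a collagen receptor, lay between 8.16 and 19.8 CPM in brush libraries with a median of 9.93, between 40.1 and 77.1 in EpCAM+ libraries with a median of 50.7, and at 2.87, 7.48, 5.15 and 5.08 in CD45+ libraries. The groups did not overlap, with log2 fold changes of -1.96 ± 0.27 (adjusted p = 2.63e-06) and 1.24 ± 0.35 (adjusted p = 0.00495). Ddr2, the collagen receptor of connective tissue, had 4, 10 and 22 counts in brush, EpCAM+ and CD45+ cells. Of the fibroblast markers, Dcn and Pdpn made up most of the sum in EpCAM+ libraries (550 to 841 CPM, beside 3.69 to 34.8 in brush libraries), while Col1a1 had 17 counts there.

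The TAM receptors Axl, Tyro3 and Mertk bind Gas6 and Pros1 and take part in the clearing of dead cells. Axl lay between 0 and 7.08 CPM in brush libraries with a median of 1.27, between 32.5 and 95 in EpCAM+ libraries with a median of 63.1, and at 43.1, 226, 47.2 and 156 in CD45+ libraries. Brush libraries were below all others, by -4.92 ± 0.56 against EpCAM+ cells (adjusted p = 2.21e-07) and -5.91 ± 0.61 against CD45+ cells (adjusted p = 2.75e-08), while EpCAM+ and CD45+ libraries overlapped.

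Mertk was a CD45+ gene, at 28.7, 40.1, 11.2 and 58.9 CPM in CD45+ libraries, 0.617 to 4.81 in EpCAM+ libraries with a median of 1.91 and 0 to 0.544 in brush libraries with a median of 0.363. The 3 groups did not overlap, with log2 fold changes of -2.70 ± 0.60 against EpCAM+ cells (adjusted p = 8.76e-04) and -6.81 ± 0.62 against CD45+ cells (adjusted p = 4.1e-09). Its 8 counts over all brush libraries leave the first of these imprecise, and the RSEM expected counts gave -4.02. Tyro3 averaged 5.48 ± 2.74, 13.5 ± 6.98 and 0.747 ± 0.641 CPM in brush, EpCAM+ and CD45+ cells. It was lower in brush than in EpCAM+ cells (-1.21 ± 0.41, adjusted p = 0.0225; 0.0503 without EpCAM+ replicate 2, 0.0629 with limma-voom) and higher than in CD45+ cells (2.58 ± 0.62, adjusted p = 0.00148).

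Both TAM ligands were low in brush cells as well. Gas6 averaged 3.59 ± 1.96 CPM in brush, 176 ± 71.4 in EpCAM+ and 151 ± 175 in CD45+ cells, and Pros1 1.98 ± 1.38, 23.8 ± 19.0 and 70.9 ± 49.9. Against EpCAM+ cells the log2 fold changes were -5.55 ± 0.61 (adjusted p = 1.24e-07) and -3.49 ± 0.57 (adjusted p = 3.07e-05), and against CD45+ cells -5.35 ± 0.63 (adjusted p = 2.38e-07) and -5.11 ± 0.63 (adjusted p = 4.49e-07). Unlike Kit and Kitl, Axl and its ligand Gas6 were both lower in brush cells than in either other group.

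Csf1r and Flt3, receptors of macrophages and of dendritic cell and lymphoid progenitors, had their high values in CD45+ cells. Csf1r lay at 296, 1240, 443 and 1553 CPM in CD45+ libraries, 0 to 13.6 in brush libraries with a median of 2.50 and 0.617 to 2.81 in EpCAM+ libraries with a median of 1.89. No library of the other groups came near the CD45+ range, with log2 fold changes of -7.16 ± 0.74 for brush cells (adjusted p = 3.19e-08) and -9.01 ± 0.80 for EpCAM+ cells (adjusted p = 3.68e-09). Among the brush libraries, replicates 3, 5 and 6 held 9.81 to 13.6 CPM and the other 4 held 0 to 2.50. The call higher than EpCAM+ cells (1.84 ± 0.65, adjusted p = 0.027) was lost without brush replicate 3 (0.0768), brush replicate 5 (0.0678), brush replicate 6 (0.0573) or EpCAM+ replicate 4 (0.0584), and with limma-voom (0.74, adjusted p = 0.552).

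Of 8 macrophage markers 4 were also called higher in brush than in EpCAM+ cells, where 18.3% of all tested genes were. The 8 summed to 14.4 to 33.2 CPM in the brush sort with all of them counted, 5.12 to 22.8 in the EpCAM+ sort with 4 at 0, and 1774 to 8333 in the CD45+ sort. In brush cells Mrc1 (10.2 ± 2.82 CPM, SD, n = 7) and Cd68 (5.62 ± 2.04) made up most of that sum. Cd68 averaged 8.27 ± 5.65 CPM in EpCAM+ cells. Of the 6 pan-leukocyte markers 4 were called higher in brush than in EpCAM+ cells, beside the same 18.3%. These 6 summed to 14.8 to 39.7, 0 to 3.21 and 5516 to 6506 CPM in the same order. Their part in the Csf1r level of brush cells was not tested. Flt3 lay at 5.75, 90.2, 44.6 and 50.8 CPM in CD45+ libraries and had no count in any brush or EpCAM+ library, so that CD45+ cells were at least 472-fold above brush cells and at least 485-fold above EpCAM+ cells. Il34, a ligand of Csf1r, was at 8.50 CPM in brush, 3.95 in EpCAM+ and 0 in CD45+ cells. The other ligand, Csf1, was at 0.891, 7.07 and 6.65 CPM.

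Among the receptors that bind Wnt proteins, Ptk7 was counted in both epithelial sorts. It lay between 27.6 and 82.1 CPM in brush libraries with a median of 43.1, between 30.5 and 122 in EpCAM+ libraries with a median of 43.2, and at 0, 0.499, 0.11 and 0 in CD45+ libraries, 3 counts in all. Brush and EpCAM+ libraries overlapped (-0.34 ± 0.35, adjusted p = 0.466), and the ratio to CD45+ cells was 321 for brush cells, with a 95% counting interval of 110 to 1560. Ryk averaged 7.80 ± 2.26, 8.98 ± 1.63 and 0.959 ± 1.10 CPM in brush, EpCAM+ and CD45+ cells, with no call between the epithelial sorts (-0.20 ± 0.34, adjusted p = 0.685). Ror1 had 38 counts in brush, 4 in EpCAM+ and 3 in CD45+ cells, and Ror2 had 5 in EpCAM+ cells and none elsewhere.

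The remaining genes were at or near 0. Flt1 had 1, 18 and 27 counts in brush, EpCAM+ and CD45+ cells, Flt4 had 7, 1 and 1, Ros1 had 5, 2 and 4, Alk had 0, 7 and 2, and Ltk had 10, 25 and 0. Pdgfrb, the pericyte and fibroblast receptor, had 13 counts in brush cells and none in the other groups. Ret, the GDNF-family receptor, was tested and called in no comparison, with 25, 27 and 80 counts. Over all 49 genes, 30 to 40 had a count in each brush library, 32 to 39 in each EpCAM+ library and 15 to 38 in each CD45+ library, the lowest in CD45+ replicate 1, which is also the shallowest library.

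**Figure D4:**
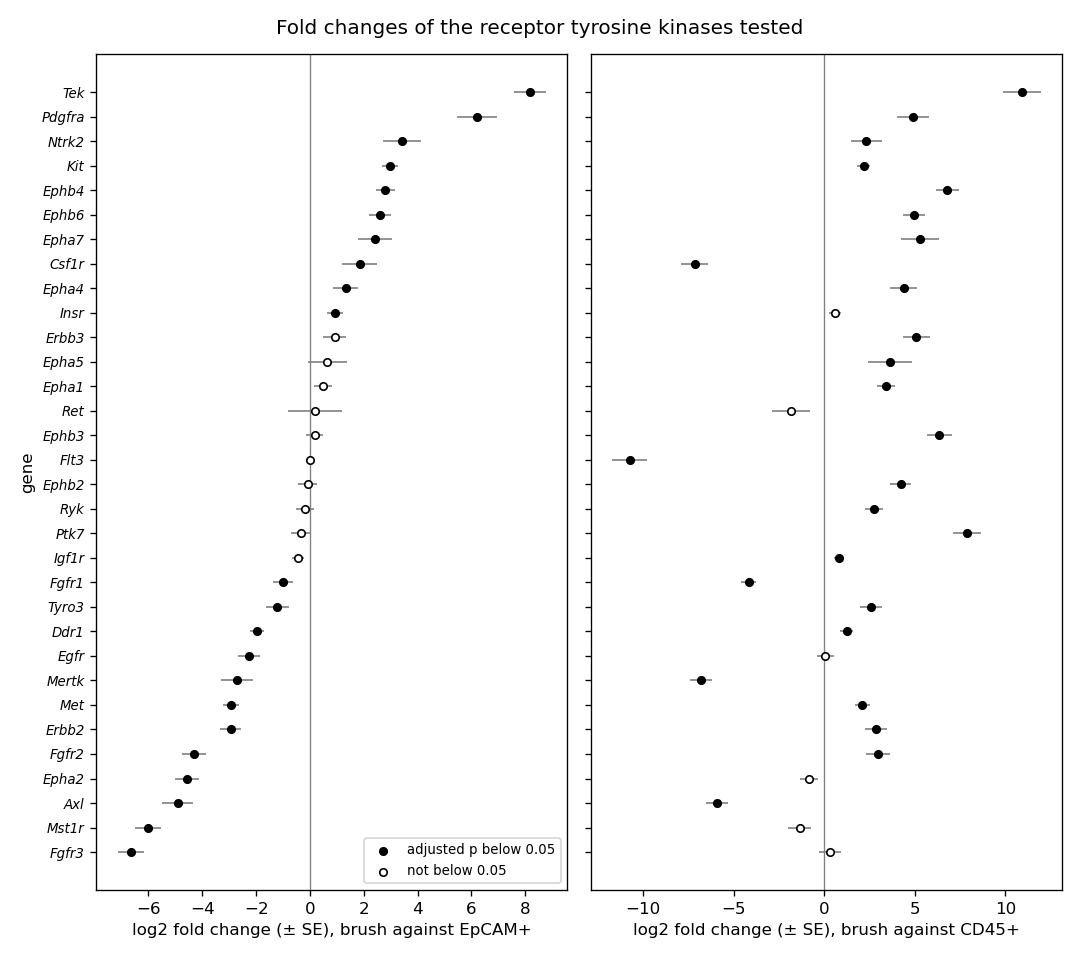
Log2 fold change and its standard error for each tested receptor gene, brush against EpCAM+ cells and brush against CD45+ cells, with called genes marked. The genes run from Fgfr3 (-6.65) to Tek (8.16) in the comparison with EpCAM+ cells; fitted values of genes with no count in a group, such as Tek and Flt3 against CD45+ cells, are no measure of size.

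Fold changes against CD45+ cells were the least certain in size, since many of these genes had few counts there. Without CD45+ replicate 3 the log2 fold change of brush against CD45+ cells was 2.24 for Erbb2, 4.44 for Erbb3, 5.60 for Pdgfra, 5.36 for Ephb2 and 5.55 for Ephb3, and without CD45+ replicate 4 it was 3.66 for Ryk. Without CD45+ replicate 2 it was 8.92 for Ptk7 and 9.27 for Ephb3. With the RSEM expected counts it was 2.13 for Fgfr2, 4.77 for Epha1, 6.20 for Epha7, 7.87 for Ephb4 and -7.58 for Mertk. With limma-voom it was 6.25 for Erbb3, 4.02 for Pdgfra, 4.54 for Epha7, 7.06 for Ptk7, -8.02 for Csf1r and -6.19 for Mertk. All of these kept their sign and their call.

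To compare levels between genes, TPM values, which are scaled by transcript length and to a common total, were read from the deposited RSEM tables, since CPM also grows with transcript length. In brush cells Ephb6 led with 84.5 ± 37.6 TPM (SD, n = 7) and Kit followed with 39.5 ± 17.2, and their SDs overlapped. Epha1 (19.1 ± 11), Tek (18 ± 14), Ephb4 (17.8 ± 10.8) and Insr (17.2 ± 6.95) came next and were not apart beyond their spread, nor were Ptk7 (13.6 ± 9.25), Erbb3 (13.3 ± 7.09) and Igf1r (12.6 ± 4.64) after them. In EpCAM+ cells Fgfr3 led with 74.4 ± 43.5 TPM, ahead of Fgfr2 (34.8 ± 15.6), Epha2 (28.0 ± 16.0) and Ddr1 (19.8 ± 10.8), and the SDs of each of these and the next overlapped. In CD45+ cells Csf1r was at 181 ± 122 TPM (n = 4), and Axl, next, at 22.2 ± 18. The leading gene thus differed between the sorts. The level summed over all 49 genes ranged from 144 to 497 TPM in the brush sort, from 85 to 429 in the EpCAM+ sort and from 69.5 to 399.7 in the CD45+ sort, so the sorts overlapped in it.

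**Figure D5:**
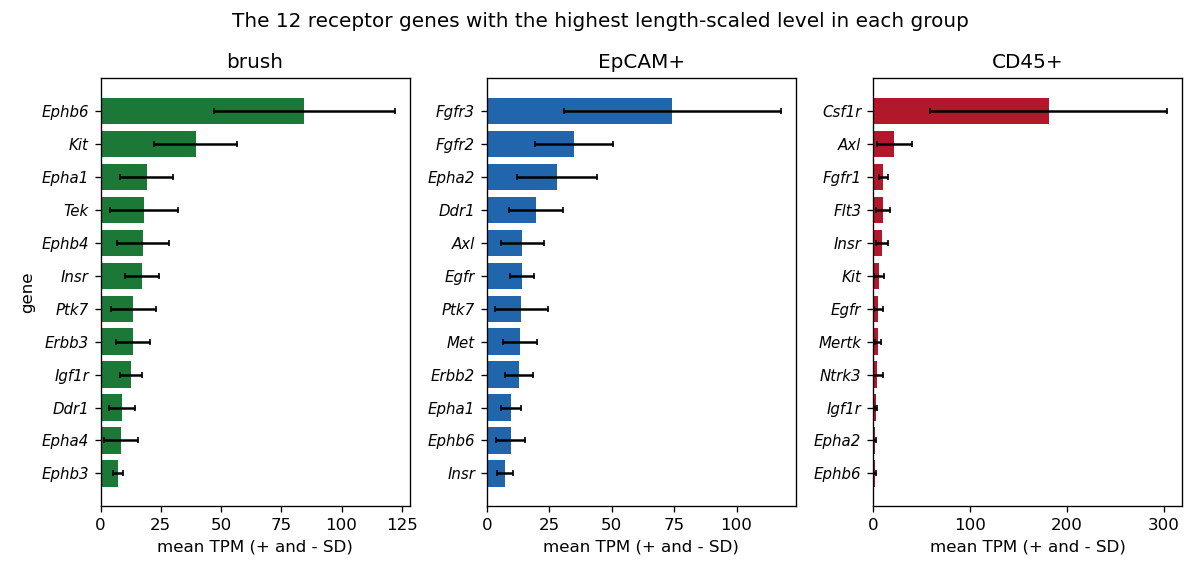
Mean TPM (horizontal axis) of the receptor genes ranking highest in each sort, with SD over libraries. Ephb6 and Kit lead in brush cells, Fgfr3 in EpCAM+ cells and Csf1r in CD45+ cells.

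The rest of the pathway was read from named lists of ligands, signal transducers, and feedback inhibitors and targets. Of 57 ligand genes 39 were tested, and 4 were higher and 19 lower in brush than in EpCAM+ cells (59.0% called, median log2 fold change -0.92, beside 40.3% and -0.06 over all tested genes). Ptn, which encodes the growth factor pleiotrophin, was one of those furthest below, at 5.81 ± 2.94 CPM in brush and 127 ± 66.7 in EpCAM+ cells (-4.49 ± 0.54, adjusted p = 4.36e-07). Against CD45+ cells 18 ligand genes were higher in brush cells and 8 were lower (66.7% called, beside 45.8% of all tested genes). Artn, a ligand of Ret's co-receptor, averaged 20.1 ± 11 CPM in brush, 39.4 ± 15.6 in EpCAM+ cells (-0.92 ± 0.36, adjusted p = 0.0442) and had 3 counts over the CD45+ libraries. Pdgfa, the ligand of Pdgfra, was at 23.5 CPM in brush, 93.6 in EpCAM+ and 8.67 in CD45+ cells, lower in brush than in EpCAM+ cells (-2.04).

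The 38 signal transducer genes were all tested, and 4 were higher and 7 lower in brush than in EpCAM+ cells (28.9% called, beside 40.3% of all tested genes and 68.8% of the receptor genes), and 7 were higher and 6 lower than in CD45+ cells (34.2%, beside 45.8%). Sos1, the Ras exchange factor, averaged 60.2 ± 22.1 CPM in brush, 14.3 ± 6.47 in EpCAM+ and 14.6 ± 2.87 in CD45+ cells, with log2 fold changes of 2.09 ± 0.32 (adjusted p = 1.29e-05) and 2.07 ± 0.41 (adjusted p = 2.05e-04). The adaptor Gab2 was higher in brush (5.70 ± 2.54 CPM) than in EpCAM+ cells (0.666 ± 0.559) by 3.08 ± 0.51 and lower than in CD45+ cells (33.3 ± 17) by -2.57 ± 0.47. Araf was higher in brush than in EpCAM+ cells by 0.83 ± 0.25. Irs2, the docking protein of the insulin receptor, was lower than in both, at 30.5 ± 20.3 CPM beside 165 ± 150 (-2.50 ± 0.47) and 79.8 ± 54.0 (-1.40 ± 0.52), and Nras was lower too, at 36.6 ± 9.86 beside 72.6 ± 2.90 (-0.97 ± 0.27) and 93.7 ± 46.1 (-1.37 ± 0.31). Grb14 and Plcg1 were lower in brush than in EpCAM+ cells by -1.70 ± 0.41 and -1.05 ± 0.39. Grb2, the central adaptor, was not called between epithelial sorts (0.40 ± 0.33, adjusted p = 0.358) and was lower in brush than in CD45+ cells (-2.46 ± 0.37, adjusted p = 7.84e-06), while Grb7 (4.34 ± 0.63), Gab1 (1.95 ± 0.59) and Hras (1.68 ± 0.66) were higher.

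Of the 34 feedback inhibitors and target genes 31 were tested, and 5 were higher and 14 lower in brush than in EpCAM+ cells (61.3% called, median log2 fold change -1.14, beside 40.3% and -0.06 over all tested genes). Against CD45+ cells 6 were higher and 8 lower (45.2%), a share near the 45.8% of all tested genes. The inhibitors Errfi1 (64.6 ± 55.7 CPM in brush, 450 ± 195 in EpCAM+ cells, -2.78 ± 0.45), Spry1 (2.06 ± 2.21 and 30 ± 15.3, -3.65 ± 0.48) and Lrig1 (8.69 ± 3.60 and 40.8 ± 12.3, -2.20 ± 0.40) were lower in brush cells. Socs3, Socs2, Ier3, Fosl1 and Lrig3 were lower too, with log2 fold changes of -3.23, -2.30, -2.22, -3.93 and -2.15. Etv1, an ETS transcription factor, went the other way and lay between 181 and 364 CPM in brush libraries, beside 4.52 ± 2.55 in EpCAM+ and 5.07 ± 2.25 in CD45+ cells, and no library overlapped. Its log2 fold changes were 5.89 ± 0.36 (adjusted p = 2.53e-11) and 5.63 ± 0.47 (adjusted p = 1.17e-09).

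Inpp5d, the phosphatase SHIP1 that turns over a PI3-kinase product, lay between 209 and 285 CPM in brush libraries and averaged 180 ± 53.9 in CD45+ cells (0.43 ± 0.37, adjusted p = 0.373), but had 3 counts over the EpCAM+ libraries, a ratio of 2541 with a 95% counting interval of 869 to 12323. Inppl1, its relative SHIP2, was higher in brush cells than in both, by 1.45 ± 0.33 (adjusted p = 0.00101) and 2.13 ± 0.43 (adjusted p = 2.58e-04). The ubiquitin ligase Cblc was at 56.6 ± 12.6 CPM in brush and 60.1 ± 15.0 in EpCAM+ cells and had 1 count over the CD45+ libraries. Cblb and the phosphatase Ptpn1 were lower in brush than in CD45+ cells (-1.31 ± 0.43 and -1.29 ± 0.27), and Sh2b3 was lower than in both (-1.48 ± 0.49 and -2.24 ± 0.55).

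The labels of the sorts were read against marker genes. The 8 brush cell markers summed to 8788 to 10337 CPM in the brush sort and 9.23 to 34.1 in the EpCAM+ sort. The 6 basal cell markers summed to 3781 to 6048 CPM in EpCAM+ and 52.4 to 202 in brush libraries, and the club cell markers to 13215 to 58299 and 159 to 579. The basal marker Ngfr was similar in both, at 39.1 ± 22.2 CPM in EpCAM+ and 35.6 ± 24.1 in brush cells (SD, n = 7). The 6 neuroendocrine cell markers summed to 4.09 to 1437 and 29.4 to 360 CPM, so these sorts overlapped. Of 5 tested, 3 were called higher and 1 lower in brush than in EpCAM+ cells, beside 18.3% and 22.0% of all tested genes. A brush library held 838328 to 6031711 counts, an EpCAM+ library 2442601 to 6087184 and a CD45+ library 371652 to 7438791. Brush replicate 4, EpCAM+ replicate 5 and CD45+ replicate 1 stood apart from their groups.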

How the data were processed

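Per the file headers and their whole-number values, the authors deposited a table of raw read counts per gene symbol for the 18 libraries, and per library an RSEM table with expected counts (estimated, need not be whole) and TPM values. The submitters' processing notes name build mm10 and, with no role or order, featureCounts, DESeq2, RSEM 1.2.21, STAR 2.4.2a and Picard. Which annotation and strand setting were used is not given in the sources used here, so overlapping genes cannot be told apart. The receptor genes and the lists were chosen with earlier results of these data known.

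Counts were tested with edgeR 4.0.16 in R 4.3.3 (TMM, filterByExpr by group, quasi-likelihood F test, 1 fit over all 18 libraries), which kept 13418 genes and removed 12909; p-values were adjusted by Benjamini-Hochberg, with calls at 0.05. Standard errors are the absolute log2 fold change over the square root of F. Scripts were tested on simulated data. CPM values use the TMM library size. A group at 0 counts was set to 3 counts; ratios against 1 to 3 counts have exact 95% intervals. Receptor genes averaging at least 20 CPM in a group (22) have values by library. From each list, up to 10 called genes per brush comparison with the largest fold change and at least 10 CPM are named, and the receptors' ligands. Alternatives were DESeq2 1.42.0, limma-voom 3.58.1, RLE scaling, other count filters, fits of 2 groups, no ribosomal RNA genes (30), rounded RSEM expected counts, a replicate block, and leaving out libraries. The 3 libraries that stood apart were taken from the earlier results. The normalized table was not used. Some signal transducer genes that meet the rule for named genes are not reported here.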

Additional observations from a re-analysis of the deposited data

Results flagged for a closer look

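For the receptor genes given by library, 55 groups of 4 or 7 libraries had a mean of at least 1 CPM. In 9 of them a library's gap to the nearest other, as a share of the range, exceeded Dixon's 95% critical value. Chance alone would give that in about 5% of groups if the values were normally distributed. That was not tested for these CPM values, and the groups share libraries, so the 9 are no measure of an excess over chance. In the EpCAM+ group, replicate 3 was high for Egfr, at 109 CPM beside 73.8 for the next library, and replicate 1 for Mertk, at 4.81 beside 2.23. EpCAM+ replicate 4 was low for Igf1r, at 38.4 CPM beside 64.6, and high for Ddr1, at 77.1 beside 53.6. In the CD45+ group, replicate 4 was high for Egfr, at 35.8 CPM beside 8.62, and replicate 2 for Erbb3, at 3.99 beside 0.508. In brush cells, replicate 4, the shallowest, was high for Fgfr3, at 7.54 CPM beside 2.72, replicate 5 for Axl, at 7.08 beside 2.98, and replicate 6 for Epha2, at 11.9 beside 5.66. The called brush differences of Fgfr3, Axl and Epha2 from EpCAM+ cells stayed called with any 1 library left out.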

How the results depend on the processing

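The counts of called receptor genes stayed within 1.5 times under 28 alternatives. Leaving out 1 library gave 8 to 12 genes higher and 11 to 13 lower in brush than in EpCAM+ cells, 18 to 21 higher and 5 to 6 lower than in CD45+ cells, and the other alternatives gave 8 to 13, 10 to 15, 17 to 22 and 4 to 7. Without the 3 libraries that stood apart the numbers were 10, 11, 21 and 5. Of the 27 receptor fold changes followed against EpCAM+ cells 6 changed their call in at least 1 alternative. Of the 31 against CD45+ cells 7 changed their call or their sign, Fgfr3 only its sign.

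With a minimum of 10 CPM in 4 libraries, which leaves 10256 genes to test, ligand genes called were 1 higher than in EpCAM+ cells, and 10 higher and 5 lower than in CD45+ cells, transducers lower than in EpCAM+ cells were 4, and feedback genes lower than in CD45+ cells were 5. Leaving out 1 library gave 3 to 5 feedback genes higher than in EpCAM+ cells (3 without brush replicate 6) and 5 to 8 lower than in CD45+ cells (5 without CD45+ replicate 4). The Egfr difference between brush and CD45+ cells ran from -0.27 to 1.36 with 1 library left out, and was -0.10 without the 3 libraries that stood apart. That of Fgfr3 ran from -0.042 to 1.19, and was -0.046 without those 3 libraries; the cause was not tested.

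Same-numbered libraries were at most weakly correlated in their deviations from their group means. The correlations ran from -0.0982 to 0.273 for brush and EpCAM+ libraries and from -0.225 to 0.119 for brush and CD45+ libraries. For EpCAM+ and CD45+ libraries they ran from -0.209 to 0.298. Whether the numbers pair libraries by animal is not in the labels, and these values cannot decide it. With the replicate number as a block, the receptor genes called were 9 higher and 11 lower than in EpCAM+ cells and 18 and 6 against CD45+ cells, and feedback genes lower than in CD45+ cells were 5. Calls not made with the block were those of Csf1r (adjusted p = 0.0966) and Fgfr1 (0.0589) against EpCAM+ cells, of Ntrk2 (0.069), Igf1r (0.0596) and Epha5 (0.0511) against CD45+ cells, and of Epha7 between EpCAM+ and CD45+ cells (0.0943). Genes with few counts in CD45+ cells, where 1 library held 371652 counts, have imprecise fold changes.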

Other observations

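A further list held 9 receptor tyrosine kinase genes beside the 49, and 3 of them were tested. Lmtk2, a membrane kinase, lay between 66.0 and 82.2 CPM in the 7 brush libraries with a median of 70.4, between 12.5 and 26.0 in EpCAM+ libraries with a median of 23.6, and averaged 8.94 ± 4.90 CPM in CD45+ libraries (SD, n = 4). No brush library overlapped with the others, and the log2 fold changes were 1.72 ± 0.24 against EpCAM+ cells (adjusted p = 3.89e-06, edgeR's quasi-likelihood test) and 2.82 ± 0.32 against CD45+ cells (adjusted p = 1.59e-07).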
